A study of Sycon ciliatum with 26 samples.

Results

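The genes described here are 200 gene IDs of the calcareous sponge Sycon ciliatum that stood above an adult library in every time window of regeneration. They were chosen on measured values from 35307 gene IDs. The counts of each library were divided by its total and multiplied by 1000000, a unit called CPM, and the CPM of the libraries of each window were averaged. A gene ID qualified if the smallest of its 7 window means was at least 10 CPM and at least 3 times its CPM in the adult library. This held for 351 IDs, which were ranked by the smallest window mean over the adult CPM plus 1, and the first 200 were kept.

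RNA was sequenced from regenerating structures that formed after an animal was dissociated into cells, in 25 libraries over 7 windows after dissociation, and from cells dissociated from a whole animal in 1 library, here named adult library. The windows were day 1 (2 libraries), day 2 (2), days 3–4 (6), days 6–8 (6), days 10–14 (4), days 16–18, labelled PJUV (3), and days 21–24, labelled JUV (2). The labels give no strain, treatment or age, no number of animals or structures behind a library, and a numbered sample set for each, from 1 to 6. The adult library belongs to set 1, and at days 1 and 2 replicate 1 was of set 1 and replicate 2 of set 2.

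Sponges can rebuild themselves from single cells. Dissociated cells reaggregate, sort and form an outer layer of pinacocytes, flat covering cells, and later an inner layer of choanocytes, flagellated collar cells that pump water and take up food. The series title sets this rebuilding beside the development that follows larval settlement. The adult library was also made from dissociated cells, labelled with no day after dissociation.

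The IDs carry the prefix MSTRG and no gene names. A RefSeq table of 26717 genes for the assembly ocSycCili1.1 holds none of these IDs (0 of 35307), so no function, position or sequence is given for a member, no cell type marker could be checked, and no pathway list could be set. Totals were 7425481 to 26087749 counts in the regenerating libraries and 11398214 in the adult library. All 42 pairs of libraries of 1 window differed beyond sampling noise, the smallest mean chi-square of a pair over genes being 15.05, and each library was counted as a replicate. The labels do not say that replicates came from separate animals, so p-values measure the spread between these libraries, which may be technical.

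Relative to the adult library the members stood several-fold higher throughout, and this is how they were chosen, so it is given with no test. The smallest window mean was between 3.45 and 39.2 times the adult CPM, with a median of 5.46 times. It was at least 5 times the adult CPM for 122 members and at least 10 times for 27. No member was at 0 in the adult library, where their counts were 6 to 7880 with a median of 79, and 15 members had fewer than 20 counts. With the adult CPM at the upper limit of its 95% exact Poisson interval, which covers counting error only, all 200 members kept a ratio of at least 3. The members were chosen and ranked on these same adult counts, so this gives no separate support. The adult side remains 1 library, whose spread between animals was not measured. In whole-structure RNA, fewer cells of a type and less RNA per cell cannot be told apart.

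Of the 6864 IDs with every window mean at least 10 CPM, 5.11% were at least 3 times the adult CPM in every window. In the other direction, 309 of all IDs had an adult CPM of at least 10 that was 3 times the largest window mean or more. The last member kept was MSTRG.3321, with a smallest mean of 48.4 CPM at day 2 and an adult level of 13.3 CPM, a ratio of 3.63. The first ID left out was MSTRG.25177, with 68.6 CPM at day 2 and 19.4 CPM in the adult library, a ratio of 3.54. Scaling moved this boundary. TMM, a scaling that balances most genes between libraries, gave the regenerating libraries factors of 0.876 to 1.15 and the adult library one of 0.825, which raised the adult levels by 0.28 on the log2 scale and so lowered the ratios to them. On TMM-scaled totals 249 IDs qualified, 189 of the 200 members among them.

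Together the members took 2.33% to 5.59% of all counts in the regenerating libraries, with a median of 3.98%, and 0.451% in the adult library. Day 1 had a mean share of 3.45% ± 1.58 (SD, n = 2), day 2 one of 3.35% ± 1.29 (SD, n = 2), and days 3–4 one of 4.16% ± 1.05 (SD, n = 6). It was 3.81% ± 0.181 (SD, n = 6) at days 6–8, 4.48% ± 0.652 (SD, n = 4) at days 10–14, 3.84% ± 0.647 (SD, n = 3) at days 16–18 and 4.57% ± 0.563 (SD, n = 2) at days 21–24. The ranges of the windows overlapped, except those of days 21–24 (4.17% to 4.97%) and days 6–8 (3.54% to 3.99%). Over the 25 libraries, 18.2% to 35.8% of the members' counts came from the 2 members with most counts in that library.

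**Figure D1:**
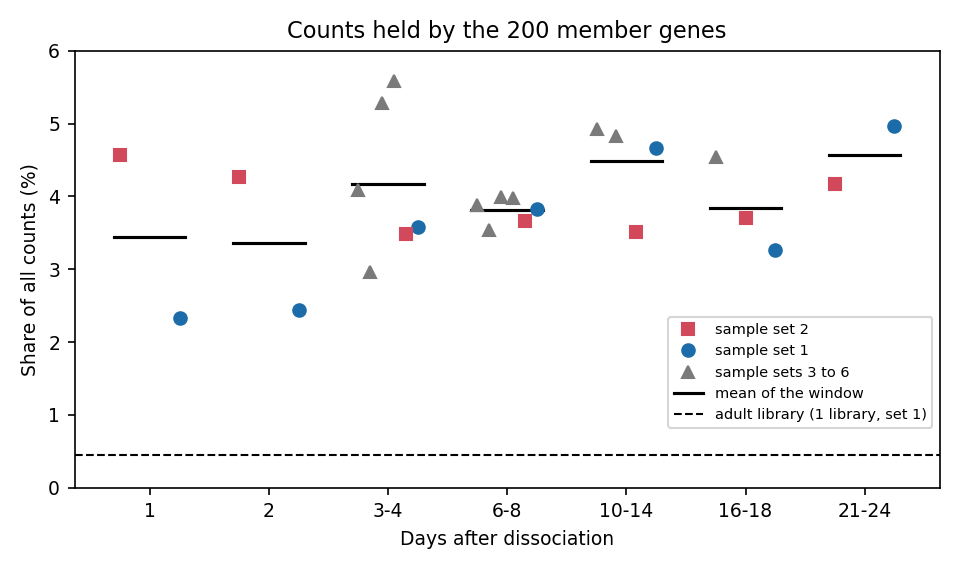
Share of all counts (%) held by the 200 members in each regenerating library by days after dissociation, with a mark for the sample set, a bar for the window mean and a dashed line for the single adult library. At day 1 the share was 4.57% in set 2 and 2.33% in set 1, and every regenerating library lay above the adult library at 0.451%.

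The median member was 6.89 times its adult CPM at day 1 and 6.86 times at day 2. The median ratio was 8.95 at days 3–4, 9.31 at days 6–8, 10.3 at days 10–14, 9.16 at days 16–18 and 10.7 at days 21–24. Members at 10 or more times the adult CPM numbered 56 at day 1 and 56 at day 2, 82 at days 3–4, 88 at days 6–8, 104 at days 10–14, 90 at days 16–18 and 106 at days 21–24. Days 21–24 held the largest window mean of 76 members (38.0%), against 17.9% of the 6864 IDs with at least 10 CPM in every window. Day 2 held the smallest mean of 70 members (35.0%), against 17.4% of those IDs, and day 1 that of 46 (23%), against 31.9%. The early window means average unlike libraries. By library, the median ratio to the adult CPM was 9.24 in replicate 2 and 4.78 in replicate 1 of day 1. At day 2 it was 8.79 in replicate 2 and 5.14 in replicate 1. From days 3–4 on, the libraries had median ratios of 6.87 to 11.9, a range that holds both early replicates 2.

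In single libraries the rise above the adult was less even than in window means. All 200 members had counts in all 25 regenerating libraries, 195 were above the adult CPM in all 25, and 127 were at least 3 times the adult CPM in all 25. Each member reached 3 times the adult CPM in at least 20 libraries, and 185 did so in at least 23. The number of members at 3 times the adult CPM was 191 to 200 in the 21 libraries from days 3–24. At day 1 it was 198 in replicate 2 and 161 in replicate 1, and at day 2 it was 200 in replicate 2 and 156 in replicate 1.

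**Figure D2:**
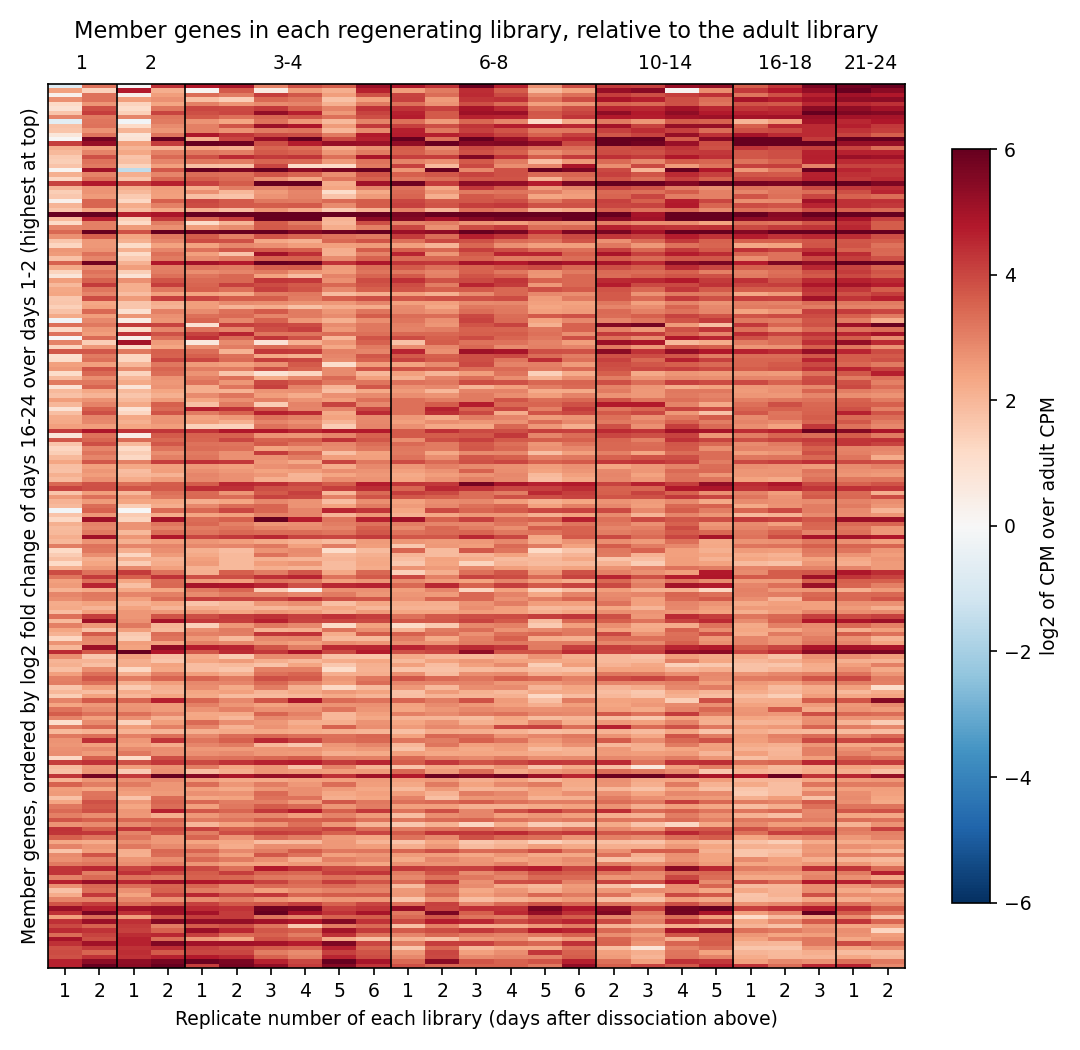
Each row is 1 of the 200 members and each column 1 of the 25 regenerating libraries, grouped by days after dissociation. Colour gives the log2 ratio of the CPM to the adult CPM, and rows run by the fitted log2 fold change of days 16–24 over days 1 and 2, highest at the top. Replicate 1 of day 1 and of day 2 is paler than replicate 2, with 161 and 156 members at 3 times the adult CPM.

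The libraries of days 1 and 2 thus fell into a higher and a lower one by sample set, and the adult library is of the set with the lower ones. On log2(CPM + 1), the median member was 0.73 higher in set 2 than in set 1 at day 1 and 0.59 higher at day 2. Over the 6864 IDs with at least 10 CPM in every window the same medians were -0.04 and -0.05. Members that were higher in set 2 numbered 164 of 200 (82.0%) at day 1, against 47.2% of those IDs, and 159 (79.5%) at day 2, against 45.9%. In later windows the median difference of the members lay between -0.23 at days 10–14 and 0.03 at days 16–18. The split then ran the other way in 2 windows, where 25% of members were higher in set 2 at days 10–14, against 50.9% of those IDs, and 30.5% at days 21–24, against 60.6%. Each set had 1 library per window, so the difference between sets was not tested, and set, animal and library cannot be told apart. The rule also bears on it. A window mean of 2 libraries can be high through 1 of them, so members may differ more between sets than other IDs. Under 3 times the adult CPM in both early set 1 libraries were 32 members, and in both early set 2 libraries 0.

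**Figure D3:**
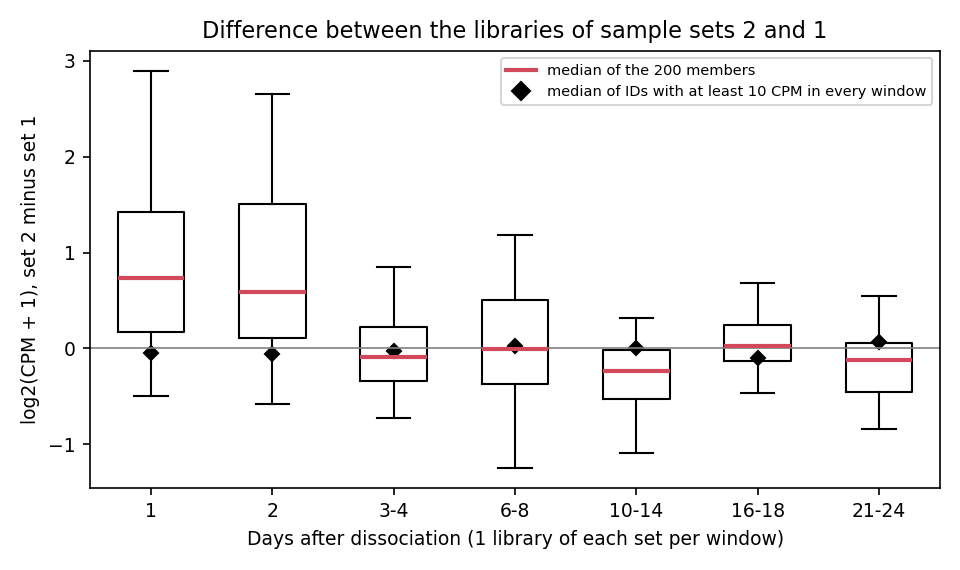
Difference in log2(CPM + 1) between the library of sample set 2 and that of set 1 in each window, as boxes over the 200 members (quartiles, with whiskers at the 5th and 95th percentiles), and diamonds for the median of the 6864 IDs with at least 10 CPM in every window. The member medians are 0.73 at day 1 and 0.59 at day 2, and between -0.23 and 0.03 in the other windows.

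A group of 58 members (29.0%) was at least 2-fold higher in set 2 on both days, against 4.08% of the 6864 IDs. It was picked after the values were seen, and so its levels are given as a description. A gene low in set 1 on these days could become a member through set 2. The excess over the 6864 IDs may thus be partly set by the rule. In set 2 the group had a median of 11.1 times the adult CPM at day 1 and 10.7 times at day 2, and in set 1 it had 2.65 times at day 1 and 2.53 times at day 2. From days 3–4 on, its median was 12.4 to 16.5 times the adult CPM. The other 142 members had 7.84 times at day 1 and 7.52 times at day 2 in set 2, and 6.07 times at day 1 and 6.04 times at day 2 in set 1. Another 3 of the 200 members were at least 2-fold lower in set 2 on both days, against 0.612% of the 6864 IDs.

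The widest gap was in MSTRG.12070, named after its values were seen. It had 74.9 CPM in set 2 and 1.46 CPM in set 1 at day 1, and 300.3 CPM in set 2 and 2.57 CPM in set 1 at day 2, beside 1.40 CPM in the adult library. At days 3–4 its lowest, median and highest values were 6.49, 28.7 and 267 CPM, and at days 6–8 they were 13.7, 42.3 and 1472 CPM. At days 21–24 both libraries were high, with 478 and 539 CPM. In set 1 its early values were thus near the adult level and far below those of set 2.

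Members not above the adult CPM in every library were 5, also named after their values were seen, and each of their low values fell in an early library of set 1. MSTRG.8283 had 18.5 CPM at day 1 and 20.7 CPM at day 2 in set 1, and 20.9 CPM in the adult library. MSTRG.33969 had 5.25 CPM and 7.36 CPM in those 2 libraries and 8.16 CPM in the adult library, and MSTRG.27405 had 2.22 CPM and 3.81 CPM, and 3.86 CPM in the adult library. MSTRG.10214 was at 11.3 CPM at day 1 in set 1, against 13.1 CPM in the adult library. MSTRG.23511 was at 1.42 CPM at day 2 in set 1, against 4.04 CPM in the adult library.

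Without replicate 2 of day 2, 247 IDs qualified by the rule, 149 of the 200 members among them, and without replicate 2 of day 1, 252 qualified, 154 members among them. The window means of set 1 alone, the set of the adult library, let 175 IDs qualify, 127 members among them. This alternative was chosen after seeing the data. The set 2 libraries alone gave 334 IDs and 173 members.

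By counts, the 2 largest members were MSTRG.32744 and MSTRG.11597. Neither passed the test over all windows described below (edgeR adjusted p 0.569 and 0.317). CPM does not correct for transcript length, so their order among genes is one of reads and not of transcripts. MSTRG.32744 had 8765 CPM in replicate 2 and 2925 CPM in replicate 1 of day 1, and 7134 CPM in replicate 2 and 2089 CPM in replicate 1 of day 2. At days 3–4 it had a lowest value of 3204, a median of 7204 and a highest of 13912 CPM, and at days 6–8 these were 4559, 6732 and 8271 CPM. It had 4509 to 10788 CPM at days 10–14, 3210, 4913 and 6077 CPM at days 16–18, 6753 and 8604 CPM at days 21–24, and 691 CPM (95% exact Poisson interval 676 to 707) in the adult library. Every regenerating library was at least 3 times the adult level, and the windows overlapped one another except days 21–24 and days 16–18.

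MSTRG.11597 varied more. At day 1 it had 1938 CPM in replicate 2 and 297 CPM in replicate 1, and at day 2 it had 1446 CPM in replicate 2 and 214 CPM in replicate 1. At days 3–4 its lowest, median and highest values were 329.8, 2359 and 6133 CPM, and at days 6–8 they were 2435, 3704 and 5765 CPM. It stood at 2607 to 6296 CPM at days 10–14, at 3165, 3207 and 3341 CPM at days 16–18 and at 1354 and 2415 CPM at days 21–24, against 78.2 CPM (95% exact Poisson interval 73.1 to 83.5) in the adult library. The smallest window mean, at day 2, was 10.6 times the adult level, and 2.74 times without replicate 2 of that day. Replicate 5 of days 3–4 was low for both genes, with 3204 CPM of MSTRG.32744 and 329.8 CPM of MSTRG.11597.

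The first 2 members by the ranking of the rule were MSTRG.19231 and MSTRG.33623. MSTRG.19231 had 205 and 158 CPM at day 1, 57.6 and 67.1 CPM at day 2, and 235 and 507 CPM at days 21–24, against 2.28 CPM (26 counts, interval 1.49 to 3.34) in the adult library. Its lowest, median and highest values were 164, 288 and 416 CPM at days 3–4 and 115, 282 and 432 CPM at days 6–8. It had 69.8 to 459 CPM at days 10–14 and 99.1, 196 and 333 CPM at days 16–18. Day 2 was its lowest window, at 62.3 CPM or 27.3 times the adult level, and both sets had similar values there. MSTRG.33623 showed the early gap between sets. It had 544 CPM in replicate 2 and 60.4 CPM in replicate 1 of day 1, 614 CPM in replicate 2 and 82.6 CPM in replicate 1 of day 2, and 470 and 484 CPM at days 21–24, against 15.4 CPM (interval 13.2 to 17.8) in the adult library. Its smallest window mean, 279 CPM at days 6–8, was 18.2 times the adult level, but the ratio was 3.93 without replicate 2 of day 1 and 5.38 without replicate 2 of day 2.

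The steadiest members over time were MSTRG.18802 and MSTRG.16928, which had the smallest range of window means among members that did not pass the test over all windows. MSTRG.18802 had window means of 71.6 ± 7.96 CPM (SD, n = 2) at day 1, 77.1 ± 3.59 (SD, n = 2) at day 2, 83.3 ± 11.9 (SD, n = 6) at days 3–4 and 73.5 ± 11.2 (SD, n = 6) at days 6–8. They were 81.3 ± 11.5 (SD, n = 4) at days 10–14, 69.8 ± 5.52 (SD, n = 3) at days 16–18 and 85.2 ± 9.26 (SD, n = 2) at days 21–24. The adult library had 12.9 CPM (147 counts, interval 10.9 to 15.2), below the lowest regenerating library of this gene at 58.8 CPM. The largest window mean was 1.22 times the smallest, and the edgeR adjusted p over all windows was 0.111. It was 0.0325 without replicate 2 of days 6–8 and 0.0275 in DESeq2, both past the threshold. MSTRG.16928 had window means between 21.1 CPM at days 16–18 and 26.1 CPM at days 3–4, a ratio of 1.24, against 2.63 CPM (30 counts, interval 1.78 to 3.76) in the adult library (edgeR adjusted p over all windows 0.385). Its single libraries were less even, from 13.2 to 35.8 CPM, both at days 10–14.

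**Figure D4:**
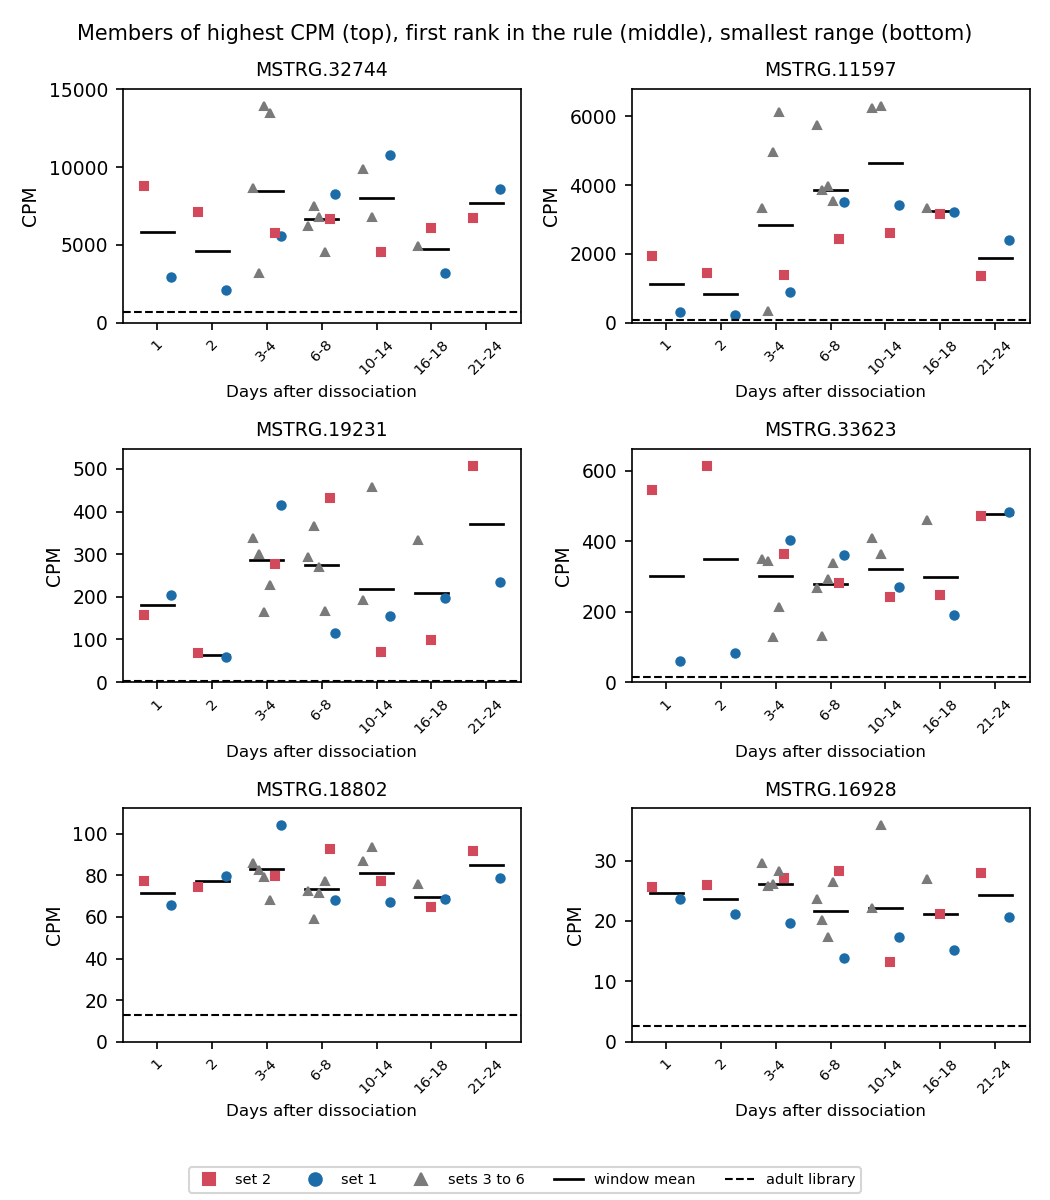
CPM in each library of the 2 members with most counts (top), the first 2 by the ranking of the rule (middle) and the 2 with the smallest range of window means (bottom), by days after dissociation. Bars are window means and the dashed line is the single adult library, which has 691 CPM of MSTRG.32744 and 12.9 CPM of MSTRG.18802.

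To ask whether the members also changed during regeneration, the 7 windows were compared with one another in edgeR's quasi-likelihood test, in a fit of the 25 regenerating libraries and all 23995 IDs that passed a filter on low counts. All 200 members passed that filter, as the floor of 10 CPM in the rule makes likely. The adult library, which the rule used, was not in this fit. The rule still bears on the outcome, since a gene that fell below 10 CPM in any window could not be a member. Fold changes below are fitted with TMM scaling, while CPM values are on library totals. Where libraries were left out, counts are given for members only. Without the share over all IDs, such a shift may not be particular to the members.

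Over all windows 62 of 200 members passed an adjusted p of 0.05 (Benjamini-Hochberg over all IDs tested), or 31.0%, against 37.5% of all IDs tested and 42.0% of the 6864 IDs with at least 10 CPM in every window. Without the set 2 libraries of days 1 and 2 the number was 99, and without the set 1 libraries it was 48. Their window means were not flatter. The largest window mean was a median of 2.33 times the smallest among members and 1.80 times among the 6864 IDs, and it was under 2 times for 40.0% of members and for 60.8% of those IDs. Spread within windows was wider too, with a median pooled SD of 0.48 on log2(CPM + 1) among members and 0.30 among the 6864 IDs. The ratio of largest to smallest window mean ran from 1.22 to 14.8 and was over 5 for 19 members. No test passed for 115 members in this comparison or any contrast below, which does not show that they were constant.

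The end of the course was then set against its start. The early libraries were counted as separate replicates, but those of the same set deviated together at days 1 and 2 (r = 0.662 over 23995 IDs). They may thus amount to fewer than 4 separate units. At days 16–24 (5 libraries) against days 1 and 2 (4 libraries), 44 members were higher and 30 lower by edgeR's adjusted p. Those are 22% and 15% of the members, against 20.7% higher and 23.2% lower of all IDs tested, and 18.5% higher and 30.5% lower of the 6864 IDs. The median log2 fold change was 0.18 over the members, 0.02 over all IDs tested and -0.13 over the 6864 IDs. The share of members that were higher was therefore near the background, and the share that was lower was below it, though the difference was not tested. The higher members had a median log2 fold change of 1.16, from 0.57 to 2.21, and 38 of the 44 had their largest window mean at days 16–18 (12) or days 21–24 (26). The lower members had a median of -0.92, from -2.83 to -0.48, and 25 of the 30 had their largest mean at day 1 (10) or day 2 (15). Both groups were chosen by this contrast, so a late or an early peak follows largely from the choice and gives no separate support.

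Relative to the adult library, the higher members had a median log2 ratio of 4.25 at days 21–24 and 2.61 at day 1, and the lower members had 2.59 at days 21–24 and 3.73 at day 1. In both groups the direction of this difference follows from how they were chosen. The 126 members that passed in neither direction had 3.28 at days 21–24 and 2.71 at day 1. Shares over all IDs are not given for the refits that follow, so a shift in the members cannot be set apart from one in all IDs. The number of higher members moved with the sample set of the early libraries. Without the set 1 libraries of days 1 and 2 it was 14, and without the set 2 libraries of these days it was 78, both alternatives chosen after seeing the data. It was 24 without replicate 1 of day 1 and 24 without replicate 1 of day 2. The number of lower members was 25 without the early set 1 libraries and 22 without the early set 2 libraries. Of the 58 members that were at least 2-fold higher in set 2 on both early days, 15 were among the 44, 1 was among the 30 and 42 passed in neither direction.

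The largest rise among members whose libraries did not overlap was that of MSTRG.20960. It had 77.7, 93.7 and 98.3 CPM at days 16–18 and 124 and 128 CPM at days 21–24, against 20.5 and 29.0 CPM at day 1 and 17.4 and 20.7 CPM at day 2. Every late library was above every early one, with means of 104 ± 21.3 CPM (SD, n = 5) in the late and 21.9 ± 4.96 CPM (SD, n = 4) in the early libraries. The log2 fold change was 2.06 (edgeR adjusted p 0.00102). At days 3–4 it had 18.2 ± 10.6 CPM (SD, n = 6), no higher than at day 2, and at days 6–8 it had 44.9 ± 18.0 CPM (SD, n = 6). The adult library had 3.07 CPM (35 counts).

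MSTRG.31756 rose as well, to 94.1, 101 and 170.1 CPM at days 16–18 and 154 and 171 CPM at days 21–24, against 46.1 and 17.1 CPM at day 1 and 37.8 and 18.7 CPM at day 2. Its means were 138 ± 37.6 CPM (SD, n = 5) in the late and 29.9 ± 14.3 CPM (SD, n = 4) in the early libraries, a log2 fold change of 2.00 (edgeR adjusted p 2.54e-05). The mean was 31.6 CPM at day 1 and 28.3 CPM at day 2. From days 3–4 on, each window had a higher mean than the one before, with 52.0 CPM at days 3–4, 64.8 CPM at days 6–8 and 83.8 CPM at days 10–14. The adult library had 7.37 CPM.

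The 2 largest falls among members whose late and early libraries did not overlap belonged to IDs with consecutive numbers. The largest fitted fall of any member, a log2 fold change of -2.83 in MSTRG.35103 (edgeR adjusted p 0.000762), came with overlapping libraries, with 41.5 to 141 CPM at days 16–24 against 935 and 1006 CPM in set 2 and 138 and 245 CPM in set 1 at days 1 and 2. MSTRG.30431 had 47.9, 59.3 and 64.0 CPM at days 16–18 and 78.6 and 87.9 CPM at days 21–24, against 358 and 212 CPM at day 1 and 455 and 349 CPM at day 2. All late libraries were below all early ones, with means of 67.6 ± 15.8 CPM (SD, n = 5) in the late and 344 ± 100 CPM (SD, n = 4) in the early libraries and a log2 fold change of -2.52 (edgeR adjusted p 0.000143). MSTRG.30430 had 90.8, 93.7 and 106 CPM at days 16–18 and 91.9 and 115 CPM at days 21–24, against 458 and 319 CPM at day 1 and 565 and 460 CPM at day 2, a log2 fold change of -2.39 (edgeR adjusted p 2.76e-06). As the rule requires of every member, the lowest window mean of both was above the adult library. It was 57.1 CPM against 8.77 CPM for MSTRG.30431 and 97.0 CPM against 22.7 CPM for MSTRG.30430. Both spread widely at days 3–4, from 139.6 to 669 CPM for MSTRG.30431 and from 185 to 613 CPM for MSTRG.30430.

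**Figure D5:**
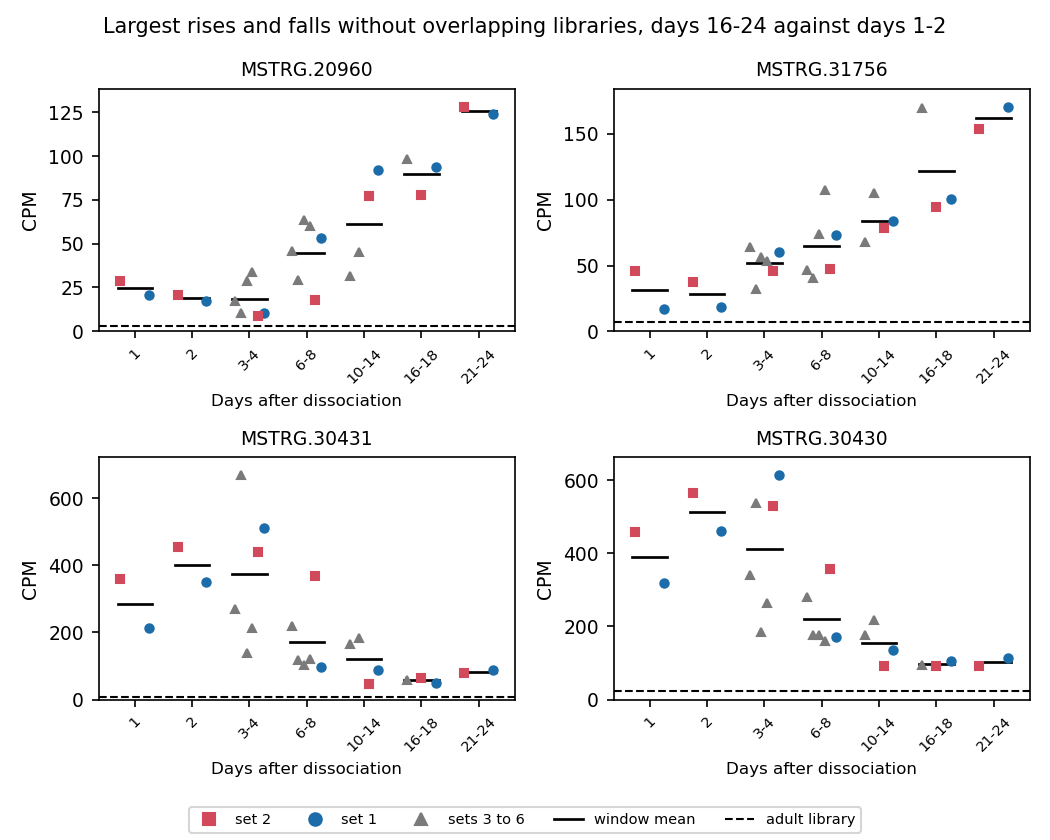
CPM in each library of the 2 members with the largest rise (top) and the 2 with the largest fall (bottom) at days 16–24 against days 1 and 2, among members whose late and early libraries did not overlap, by days after dissociation, with bars for window means and a dashed line for the single adult library. MSTRG.20960 lies between 77.7 and 128 CPM at days 16–24 and between 17.4 and 29.0 CPM at days 1 and 2.

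Across the 25 libraries MSTRG.30430 and MSTRG.30431 had a correlation of 0.97 on log2(CPM + 1), as a description over libraries that share the time course. StringTie, which is among the tools named for this series, numbers its merged gene models along the assembly, so consecutive numbers can be neighbours, and a pair of such IDs can also be parts of 1 gene. The positions of these IDs were not used here. Members with another member as the next or previous number were 10 (5%), in 5 pairs, and 1.11% of all other IDs had a member beside them. The other pairs had correlations of 0.92 (MSTRG.27628 and MSTRG.27629), 0.86 (MSTRG.28822 and MSTRG.28823), 0.16 (MSTRG.23388 and MSTRG.23389) and -0.23 (MSTRG.16927 and MSTRG.16928). Over 1741 pairs of consecutive numbers among the 6864 IDs the median was 0.10. The 200 IDs may thus stand for fewer than 200 genes.

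Few members passed the test of the middle of the course against its ends, and so did few of all IDs tested. This does not show that the other members had no peak or trough there. At days 3–8 against both ends (days 1, 2 and 16 to 24), 4 members were higher and 3 lower by edgeR's adjusted p, 2% and 1.5% of the members, against 4.23% higher and 2.00% lower of all IDs tested and 3.47% and 3.23% of the 6864 IDs. MSTRG.11810 had a lowest, median and highest value of 149.6, 186 and 253 CPM at days 3–4 and 183, 227 and 311 CPM at days 6–8. Against this it had 117 and 67.7 CPM at day 1, 220.5 and 92.6 CPM at day 2, 63.6, 68.2 and 118 CPM at days 16–18, and 80.3 and 94.7 CPM at days 21–24, a log2 fold change of 1.06 (edgeR adjusted p 0.0079). Only replicate 2 of day 2 lay within the range of days 3–8. MSTRG.2541 had 169 ± 57.9 CPM (SD, n = 6) at days 3–4 and 151 ± 31.6 CPM (SD, n = 6) at days 6–8. Against this it had means of 103 CPM at day 1, 128 CPM at day 2, 48.4 CPM at days 16–18 and 66.8 CPM at days 21–24 (log2 fold change 0.91, edgeR adjusted p 0.0151). Its early values were 135 and 181 CPM in set 2 and 72.1 and 74.7 CPM in set 1, at days 1 and 2. Those of set 2 lay within the range of days 3–8 (99.6 to 240 CPM). Without the early set 1 libraries MSTRG.11810 had an edgeR adjusted p of 0.08 and MSTRG.2541 one of 0.119, and MSTRG.2541 also missed the threshold without replicate 1 of day 1, replicate 1 of day 2 or replicate 2 of days 21–24 (0.061, 0.0624 and 0.0558). The other 2 higher members, named because the count is small, were MSTRG.11442, with a log2 fold change of 0.40, and MSTRG.31043, with 0.87 (edgeR adjusted p 0.0195 and 0.0478). Neither had a peak confined to the middle. MSTRG.11442 rose from 43.6 CPM at day 2 to 78.9 CPM at days 3–4 and had 77.9 CPM at days 21–24. MSTRG.31043 had means of 120 CPM at day 1, 81.8 CPM at day 2, 125 CPM at days 3–4 and 105 CPM at days 6–8. It had 123 CPM at days 10–14, 48.0 CPM at days 16–18 and 26.6 CPM at days 21–24.

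Of the 3 lower members, MSTRG.1108 was low from days 3–4 to the end. It had 17.0 ± 9.42 CPM (SD, n = 6) at days 3–4 and 11.8 ± 3.08 CPM (SD, n = 6) at days 6–8. Its early means were 51.9 CPM at day 1 (71.0 CPM in set 1, 32.8 CPM in set 2) and 39.5 CPM at day 2 (55.9 CPM in set 1, 23.2 CPM in set 2). The set 2 value of day 2 lay within the range of days 3–4 (7.87 to 31.3 CPM). The late means were 16.9 CPM at days 16–18 and 12.97 CPM at days 21–24 (log2 fold change of days 3–8 -0.91, edgeR adjusted p 0.0471). This call held in 13 of 34 alternatives. It was also lower at days 16–24 than at days 1 and 2, with a log2 fold change of -1.85 (edgeR adjusted p 0.00122). MSTRG.24122 dipped at days 3–4, with 325 ± 29.4 CPM (SD, n = 6) against 491 ± 101 CPM (SD, n = 2) at day 2, and had 462 ± 69.2 CPM (SD, n = 6) at days 6–8 and 609 ± 18.0 CPM (SD, n = 3) at days 16–18 (log2 fold change of days 3–8 -0.43, edgeR adjusted p 0.0166). The third was MSTRG.403, with a log2 fold change of -0.38 (edgeR adjusted p 0.0493). The adjusted p of MSTRG.24122 was 0.0881 without the early set 1 libraries, 0.0713 without replicate 1 of day 2 and 0.0613 without replicate 1 of days 21–24. Without the early set 1 libraries 0 members passed in either direction of this edgeR contrast, and without the early set 2 libraries 35 were higher and 7 lower.

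Between single steps of the course few members passed the test, and so did few of all IDs tested. The differences between these shares were not tested. At days 3–4 against day 2, 1 member was higher and 1 lower, 0.5% each, against 1.32% higher and 1.58% lower of all IDs tested and 1.33% and 1.62% of the 6864 IDs. The higher one, MSTRG.11442, had 78.9 ± 17.8 CPM (SD, n = 6) at days 3–4 against 43.6 ± 9.76 CPM (SD, n = 2) at day 2, a log2 fold change of 0.73 (edgeR adjusted p 0.0314), and held 77.5 to 84.7 CPM in all later window means. The lower one was MSTRG.24122, with a log2 fold change of -0.69 (edgeR adjusted p 0.035). Without the set 2 libraries of days 1 and 2, 24 members were higher and 2 lower at this step, and without the set 1 libraries 0 passed in either direction. At days 6–8 against days 3–4, 1 member was higher and 11 lower, 0.5% and 5.5%, against 2.53% higher and 5.68% lower of all IDs tested and 2.46% and 6.16% of the 6864 IDs. The higher one, MSTRG.31352, had 33.2 ± 9.97 CPM (SD, n = 6) at days 6–8 against 19.96 ± 3.31 CPM (SD, n = 6) at days 3–4, a log2 fold change of 0.62 (edgeR adjusted p 0.0239). It stood at 52.5 CPM at days 21–24 and 13.7 CPM at day 1.

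The 11 lower members had log2 fold changes from -1.38 to -0.49, and MSTRG.30430 was among them at -0.98 (edgeR adjusted p 0.0185). Their number was 2 without replicate 3 of days 6–8, 5 without replicate 1 of that window and 18 without replicate 2 of it. It was 5 without replicate 3 of days 3–4 and 7 without replicate 5 of that window. The largest fall of this step was that of MSTRG.16941, named after its values were seen, with 49.1 ± 24.9 CPM (SD, n = 6) at days 6–8 against 119 ± 40.5 CPM (SD, n = 6) at days 3–4 (edgeR adjusted p 0.0173).

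Among the other 10 falls of this step, 3 are given as examples of different courses, picked after their values were seen. MSTRG.20267 stayed low afterwards, with 26.7 ± 8.38 CPM (SD, n = 6) at days 6–8 against 58.1 ± 19.4 CPM (SD, n = 6) at days 3–4 (log2 fold change -1.25, edgeR adjusted p 0.00648), and means of 19.1 CPM at days 10–14, 10.5 CPM at days 16–18 and 23.5 CPM at days 21–24. MSTRG.30450, one of the members with most counts, had 1406 ± 345 CPM (SD, n = 6) at days 6–8 against 2443 ± 891 CPM (SD, n = 6) at days 3–4 (log2 fold change -0.94, edgeR adjusted p 0.0256). Its later means were 1589 CPM at days 10–14, 2585 CPM at days 16–18 and 2167 CPM at days 21–24, so its lowest window was days 6–8. MSTRG.6172 had 13.6 ± 3.28 CPM (SD, n = 6) at days 6–8 against 24.1 ± 4.19 CPM (SD, n = 6) at days 3–4 (log2 fold change -0.95, edgeR adjusted p 0.0134). Days 3–4 were its highest window, beside 11.6 CPM at day 1, 11.7 CPM at day 2, 13.5 CPM at days 10–14 and 11.4 CPM at days 16–18. At days 21–24 its mean was higher again, at 18.1 CPM.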

How the data were processed

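Each library has a deposited table of raw counts, whole numbers of reads for each gene ID with no normalization by the authors. Trizol was used for the RNA and a Lexogen SENSE kit for the indexed libraries, per the labels' protocols. Per the submitters' processing notes, the authors' tools were Trimmomatic 0.36, HISAT2, StringTie, featureCounts, DESeq2 and Bowtie2, with no role or order. The genome build, gene models and strand setting are not given in the sources used here. Merged models can split a gene or share reads between overlapping or near-identical IDs, and the value of a single ID is uncertain to that degree.

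Windows and replicate numbers came from the titles (at days 10–14 these run 2 to 5, the sample sets 1 to 4, and the design text ends this window at day 12). Members followed the rule given above on CPM over column totals. Tests used edgeR 4.0.16 with limma 3.58.1 in R 4.3.3 (filterByExpr, TMM, glmQLFit with robust = TRUE) on 25 libraries with the window as the only factor. They were two-sided, with Benjamini-Hochberg adjustment over 23995 IDs, and 11312 were not tested. The edgeR procedure was tested on simulated data. Descriptions were computed in Python 3.11.15 (SciPy 1.17.1, pandas 2.3.3).

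Members, contrasts and alternatives were chosen with earlier results of these data known. The named members were the 2 of largest and smallest log2 fold change at days 16–24 against days 1 and 2 (adjusted p under 0.05, absolute value at least 1, libraries not overlapping), the same for days 3–8 against both ends by adjusted p alone, the 2 steadiest, the first 2 in rank, the 2 of highest CPM, and those beside the limit of 200. The alternatives were other scalings and filters, DESeq2 1.42.0, replicate blocks, other membership rules and leaving out libraries.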

Additional observations from a re-analysis of the deposited data

Results flagged for a closer look

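Dixon's test asked in windows of 4 to 6 libraries whether the highest or lowest library stood apart in the members' share of counts, in the number of members at 3 times the adult CPM and in the named members. It was passed in 2 of 54 sets of values, and chance gives about 1 in 20. Both belonged to MSTRG.12070, the member with the widest gap between sample sets. At days 3–4, replicate 4 had 267 CPM, against 6.49 to 52.0 CPM in the other 5 libraries. At days 6–8, replicate 3 had 1472 CPM, against 13.7 to 146 CPM in the other 5. The cause was not tested.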

How the results depend on the processing

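Of the members named by the rules for days 16–24 and for days 3–8, none changed the sign of that log2 fold change under any alternative run. The balance of higher and lower members did change in some, as at days 16–24 without the early set 1 libraries. The largest shifts came from leaving out the early libraries of 1 sample set, chosen after seeing the data. These refits hold fewer early libraries, and their shares over all IDs are not given, so the shifts may not be particular to the members. Without set 2 at days 1 and 2, members past the threshold numbered 99 over all windows (62 as reported), 78 higher at days 16–24 (44), 35 higher and 7 lower at days 3–8 against both ends (4 and 3), and 24 higher and 2 lower at days 3–4 against day 2 (1 and 1). Without set 1 there, 14 were higher at days 16–24, and 0 passed in either direction of the other 2 contrasts. With DESeq2, 8 were higher and 11 lower at days 3–8 against both ends, 8 and 2 at days 3–4 against day 2, and 4 and 17 at days 6–8 against days 3–4 (1 and 11). Upper-quartile scaling gave 9 higher at days 3–8, and no filter on low counts gave 1 lower there. A mean of at least 5 CPM gave 2 higher at days 3–4 against day 2 and 3 higher at days 6–8 against days 3–4.

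Libraries of days 1 and 2 with the same number deviated together (r = 0.662 over 23995 IDs), but over all windows 9 of 49 pairs by title number had r above 0.1 and 10 of 53 by set, so numbers were not taken to pair libraries. With the title number as a replicate block, 57 members passed over all windows, 42 were higher and 32 lower at days 16–24, and 0 passed at days 3–8 against both ends or at days 3–4 against day 2, in either direction. Days 6–8 against days 3–4 then had 2 higher. With the set number as a replicate block, 65 passed over all windows, 41 were higher and 33 lower at days 16–24, 2 were higher at days 3–8 and 0 higher at days 3–4 against day 2.

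Leaving out 1 library at a time gave 54 to 78 over all windows, 24 to 62 higher and 23 to 39 lower at days 16–24, 1 to 13 higher and 0 to 8 lower at days 3–8, 0 to 4 higher and 0 to 3 lower at days 3–4 against day 2, and 0 to 4 higher and 2 to 18 lower at days 6–8 against days 3–4. The membership rule was met by 247 to 382 IDs in this way (351 as reported), by 904 with a ratio of at least 2 and by 122 with one of at least 5. DESeq2 size factors gave 216 (179 members among them), every library in place of window means 130 (113), set 1 alone 175 (127) and the adult at its upper Poisson limit 219 (200). The cause of these shifts was not tested. Days 1, 2 and 21–24 rest on 2 libraries each and the adult side on 1, and 15 members had fewer than 20 adult counts, which limits their ratios.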
